A study of Mus musculus with 12 samples.

Results

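Cholesterol synthesis genes were followed across fat cells and stromo-vascular cells of 2 mouse fat depots. The set holds 9 genes, Idi1, Fdps, Fdft1, Sqle, Lss, Cyp51, Nsdhl, Hsd17b7 and Sc5d, of 8251 genes named on the array. Members were all probe sets whose single symbol in the platform annotation is one of these 9, which gave 15 probe sets. Of these 13 passed the filter on dim signal and were tested, and every gene kept at least 1. The other 2, both of Fdps (162281_at and 162217_r_at), were dim, at 69.6 to 429 and 8.92 to 90.7 over the 12 arrays, and were not tested. The set, and the gene lists beside it, were chosen with earlier results of these data known. Counts of members beside the share of all probe sets are therefore descriptive.

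The arrays came from male C57BL/6 mice, an inbred laboratory strain, aged 42 to 49 days. Per the labels, tissue of 10 mice was pooled by depot and digested with collagenase. The 4 groups had 3 arrays each: subcutaneous adipocytes, from the flank, intraabdominal adipocytes, from the epididymal pad, subcutaneous stromo-vascular cells and intraabdominal stromo-vascular cells. Adipocytes went straight to RNA extraction, whereas stromo-vascular cells, a mixture of fat cell precursors and other cell types, were freed of red cells, plated in medium with serum and taken after 16 h. Cell fraction and culture therefore cannot be told apart. No label names a treatment of the mice, and nothing in the labels says whether the 3 arrays of a group are separate pools, so the p-values speak only to the spread among these arrays, which may be technical.

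Animal cells make cholesterol from acetyl-CoA through mevalonate, isoprenoid units and squalene to lanosterol, which is then trimmed to cholesterol in the endoplasmic reticulum. The enzymes are as a rule controlled together: when membrane sterol is low, the membrane-bound transcription factor SREBP-2 is cleaved and switches the genes on, usually with the CCAAT-binding factor NF-Y at the same promoters. Fat cells store a large share of the body's free cholesterol, most of it taken up from lipoproteins. SREBP-1, the related factor encoded by Srebf1, is tied mainly to genes of fatty acid synthesis.

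The promoters are shown for 4 members. Idi1, Cyp51 and Nsdhl were called higher in adipocytes of both depots, and the depot difference of Idi1 also depended on the cell fraction. Hsd17b7 was called lower in subcutaneous adipocytes. A link between sequence and these results was not tested. Each promoter is the RefSeq window of 300 bases on GRCm38.p6, from 250 before to 50 after the gene's start, on the gene's strand and 5′ to 3′. Capitals mark the CCAAT box (CCAAT) and the GC box (GGGCGG), each searched on both strands.
Idi1, chr13:8885356-8885655, plus strand: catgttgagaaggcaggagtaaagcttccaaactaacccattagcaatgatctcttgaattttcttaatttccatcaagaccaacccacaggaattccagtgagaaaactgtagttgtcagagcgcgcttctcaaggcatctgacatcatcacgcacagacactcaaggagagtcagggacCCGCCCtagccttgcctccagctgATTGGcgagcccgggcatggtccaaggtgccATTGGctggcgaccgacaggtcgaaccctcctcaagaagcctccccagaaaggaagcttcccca
Cyp51, chr5:4104648-4104947, minus strand: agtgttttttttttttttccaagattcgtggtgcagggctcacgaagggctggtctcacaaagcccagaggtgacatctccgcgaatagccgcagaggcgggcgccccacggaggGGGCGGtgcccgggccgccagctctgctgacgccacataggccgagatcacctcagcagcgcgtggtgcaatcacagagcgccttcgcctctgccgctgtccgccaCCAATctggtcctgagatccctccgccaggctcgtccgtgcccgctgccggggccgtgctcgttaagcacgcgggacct
Nsdhl, chrX:72918271-72918570, plus strand: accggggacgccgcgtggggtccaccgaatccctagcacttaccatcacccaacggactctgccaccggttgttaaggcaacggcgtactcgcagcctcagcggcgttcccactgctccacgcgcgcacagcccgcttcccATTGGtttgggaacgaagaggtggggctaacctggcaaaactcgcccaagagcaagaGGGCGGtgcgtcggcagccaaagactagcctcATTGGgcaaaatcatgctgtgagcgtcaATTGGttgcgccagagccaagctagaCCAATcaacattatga
Hsd17b7, chr1:169969156-169969455, minus strand: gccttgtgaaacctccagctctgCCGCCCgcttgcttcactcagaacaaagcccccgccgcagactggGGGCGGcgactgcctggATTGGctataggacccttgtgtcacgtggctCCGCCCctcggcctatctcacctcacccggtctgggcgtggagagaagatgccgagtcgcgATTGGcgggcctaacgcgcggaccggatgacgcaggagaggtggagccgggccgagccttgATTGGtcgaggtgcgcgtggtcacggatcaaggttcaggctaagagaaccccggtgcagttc

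The promoter table matched 6 of the 9 members, these 4 with Lss and Sc5d, and not Sqle, Fdft1 or Fdps. All 6 windows held a CCAAT box, as did 37.4% of the 32851 promoters in the table, and all 6 held a GC box, as did 35.7%. Idi1 had 2 CCAAT boxes, Nsdhl 4, Hsd17b7 3 and Cyp51 1, and no match overlapped another. The form TCACNCCAC of the sterol response element, the sequence SREBP binds, was searched on both strands and was found in 0 of the 6 windows and in 1.24% of all promoters. Other forms of the element were not searched, so this does not show that the windows lack one. These matches describe letters in a window and are not binding sites.

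The MAS5 signal, a linear intensity as deposited by the authors, is given below for single arrays, and differences are on a log2 scale after 40.1 was added to every signal. The model of limma was fitted to all 8695 tested probe sets on all 12 arrays, and "called" stands for an adjusted p under 0.05 (Benjamini-Hochberg). Array medians ran from 423 to 559. The summed signal of 8 adipocyte markers was 502348 to 589748 in subcutaneous and 540477 to 672943 in intraabdominal adipocytes, against 3244 to 5218 in subcutaneous and 3625 to 3948 in intraabdominal stromo-vascular cells. The ratio of 3' to 5' signal of actin, which rises as RNA breaks down, was 2.35 to 3.10 in subcutaneous adipocytes, 1.71 to 2.24 in intraabdominal adipocytes, 1.2 to 1.24 in subcutaneous and 1.11 to 1.21 in intraabdominal stromo-vascular cells. It separated the 6 adipocyte from the 6 stromo-vascular arrays (two-sided exact permutation p = 0.0022, the smallest that 924 splits allow). Its part in the fraction differences therefore cannot be told apart from that of fraction and culture. Nor did the ratio overlap between the 2 adipocyte groups, so its part in their differences cannot be told apart from that of depot. Fits with the ratio as a covariate are given beside those differences.

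**Figure D1:**
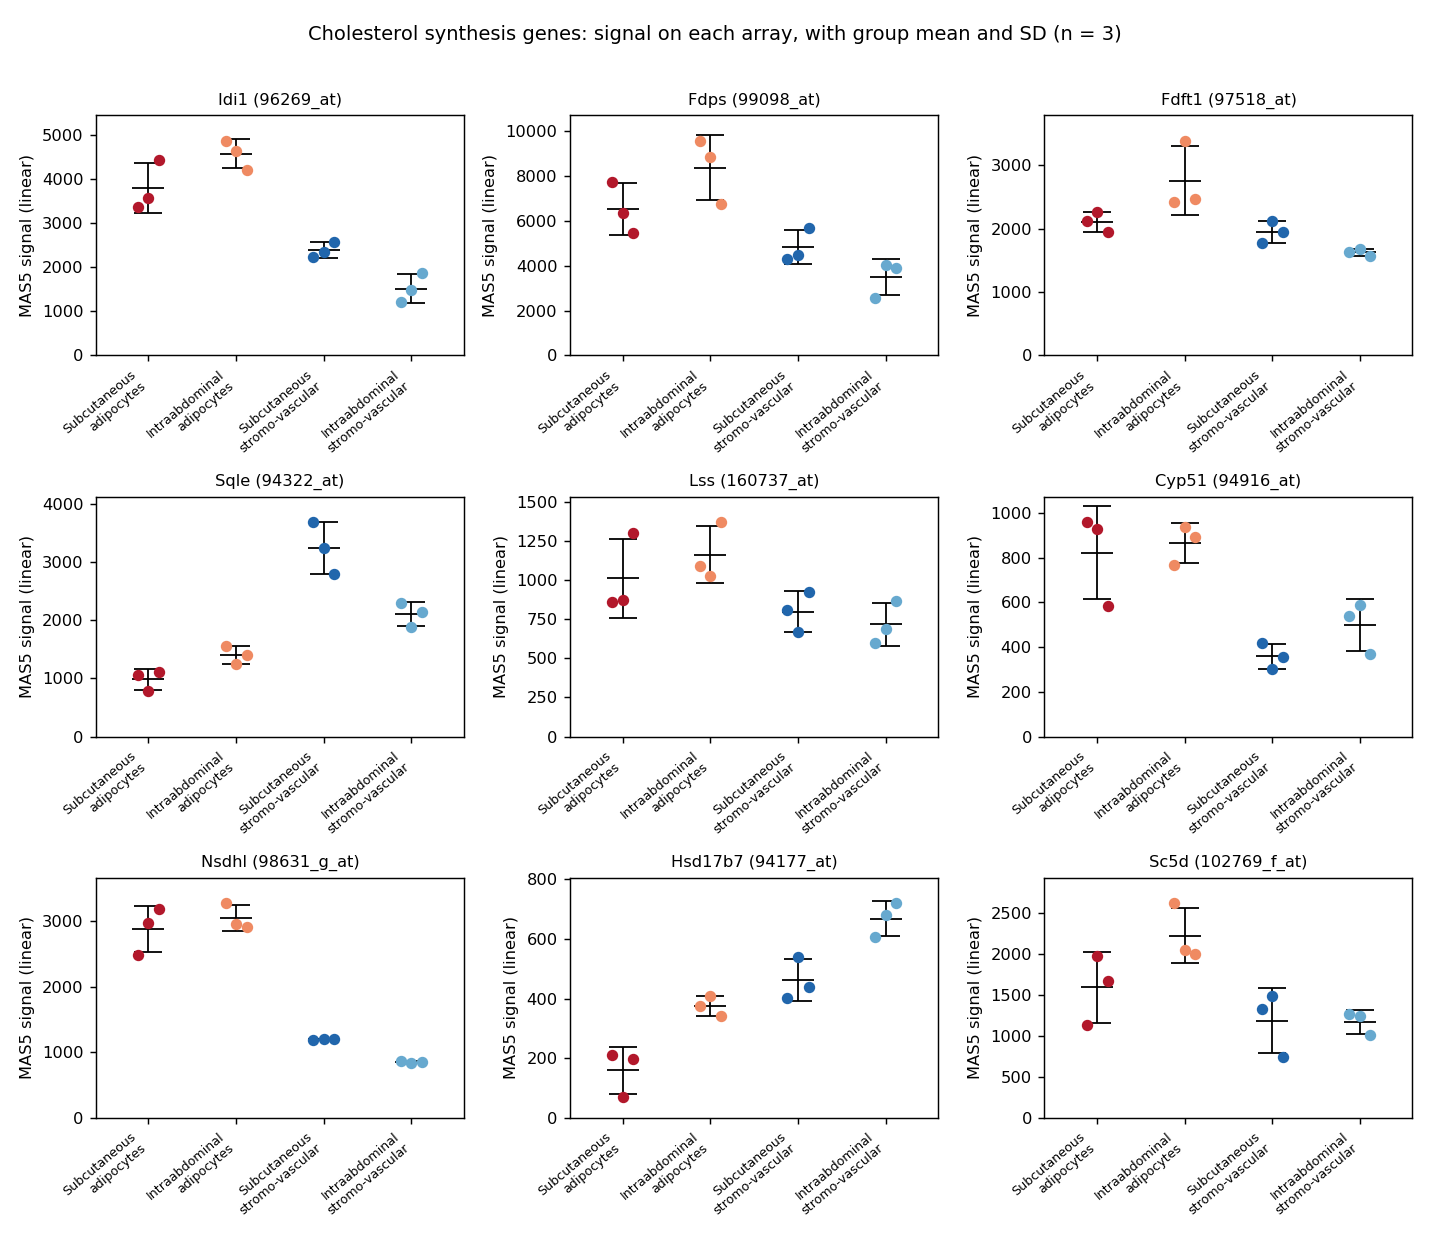
Signal of the 9 genes (1 panel each, the brightest probe set of the gene) on each array, with the linear MAS5 signal on the vertical axis from 0 and the 4 groups along the horizontal axis. Points are single arrays and bars the mean and SD (n = 3). Sqle and Hsd17b7 are the panels in which stromo-vascular cells have the higher means.

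The first question was whether fat cells and plated stromo-vascular cells of the same depot differ in these genes. In intraabdominal fat 7 of the 9 genes were called higher in adipocytes, and in subcutaneous fat 3 were, Idi1, Cyp51 and Nsdhl, but squalene epoxidase (Sqle) was lower in adipocytes of both depots and the sterol ketoreductase Hsd17b7 in those of subcutaneous fat. In intraabdominal fat 11 of 13 tested probe sets were called higher in adipocytes and 1 lower. Of all probe sets 51.3% were called there, 22.4% higher and 29.0% lower. In subcutaneous fat 6 of 13 were higher and 2 lower, where 52.8% of all probe sets were called, 23.5% higher and 29.4% lower. Arrays of the fractions did not overlap for 6 member probe sets higher and 2 lower in subcutaneous adipocytes, against 27.6% and 32.3% of all probe sets, and for 11 higher and 2 lower in intraabdominal adipocytes, against 26.2% and 33.8%. The counts of genes take the brightest probe set of each, and of the 7 genes Idi1 alone had a called difference between its 2 gaps, as given with the last comparison. The members' median log2 difference, over the 13 probe sets, was 0.90 in intraabdominal and 0.44 in subcutaneous fat, beside -0.11 and -0.044 for all probe sets. On the brightest probe set of each gene it was 0.77 and 0.42. In bulk samples, fewer cells of a type and less RNA per cell cannot be told apart.

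Markers of other cell types moved with the fractions. Endothelial markers, 7 of 7 called higher in adipocytes of both depots, summed to 11813 to 18920.1 in subcutaneous and 15044 to 16467 in intraabdominal adipocytes, against 3393 to 4048 in subcutaneous and 1409 to 2071 in intraabdominal stromo-vascular cells. Macrophage markers were called higher in 3 and lower in 4 of 8 in subcutaneous adipocytes, and higher in 3 and lower in 5 in intraabdominal adipocytes. Smooth muscle and pericyte markers were called lower in 3 of 6 in subcutaneous and in 6 of 6 in intraabdominal adipocytes. Fibroblast and preadipocyte markers, 1 higher and 6 lower of 8 in subcutaneous adipocytes and 1 higher and 7 lower in intraabdominal adipocytes, summed to 53949 to 78798 in subcutaneous and 45721 to 51908 in intraabdominal adipocytes, against 331359 to 362534 in subcutaneous and 222569 to 249309 in intraabdominal stromo-vascular cells. Their part in the fraction differences was not tested.

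Nsdhl, the dehydrogenase that removes carboxyl groups at carbon 4 of the sterol ring, stood farther above its stromo-vascular level in adipocytes than any other of the 9 genes, in both depots. Its probe set 98631_g_at read 2486, 2971 and 3177 in subcutaneous adipocytes, against 1189, 1208 and 1198 in subcutaneous stromo-vascular cells. In intraabdominal fat it read 3269.8, 2955 and 2903 in adipocytes, against 858, 829 and 853 in stromo-vascular cells. The adipocyte arrays of both depots lay above every stromo-vascular array. The difference was 2.34-fold in subcutaneous fat (log2 1.23 ± 0.14 SE, adjusted p = 3.39e-06) and 3.47-fold in intraabdominal fat (log2 1.80 ± 0.14 SE, adjusted p = 5.99e-08). Its other probe sets, 98630_at and 93868_at, gave 3.21-fold and 3.09-fold in subcutaneous and 3.79-fold and 3.76-fold in intraabdominal fat, so the 3 probe sets pointed the same way.

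Idi1, the isomerase that prepares the isoprenoid building block, read 3360.0, 3569 and 4433 in subcutaneous adipocytes, against 2236, 2348 and 2575 in subcutaneous stromo-vascular cells. Intraabdominal adipocytes read 4852, 4634 and 4209, against 1200.3, 1478 and 1865 in intraabdominal stromo-vascular cells. The fractions did not overlap in either depot, and the gap was wider in intraabdominal fat, 3.0-fold (log2 1.59 ± 0.16 SE, adjusted p = 1.27e-06), than in subcutaneous fat, 1.57-fold (log2 0.65 ± 0.16 SE, adjusted p = 0.00404). This difference of differences is tested below.

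Fdps, which joins isoprenoid units to farnesyl diphosphate, followed the same order. Probe set 99098_at read 9532, 8821 and 6725 in intraabdominal adipocytes, against 2569, 4003 and 3898 in intraabdominal stromo-vascular cells (2.40-fold, adjusted p = 7.03e-05). In subcutaneous fat it read 7732, 6351 and 5431 in adipocytes, against 4301, 4489 and 5690.2 in stromo-vascular cells, with overlapping arrays (1.34-fold, 95% interval of the log2 difference 0.0042 to 0.84, adjusted p = 0.0835). Probe set 160424_f_at, of a class that may also bind related sequences, was called in both depots, at 2.39-fold in intraabdominal and 1.60-fold in subcutaneous fat (adjusted p = 1.19e-05 and 0.0026). The uncalled probe set passed when subcutaneous adipocyte array 3 was left out (adjusted p = 0.0462).

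Fdft1, squalene synthase, the first enzyme committed to sterols, differed between fractions in intraabdominal fat. It read 2418, 3381 and 2476 in intraabdominal adipocytes, against 1637, 1680.5 and 1565 in intraabdominal stromo-vascular cells (1.66-fold, adjusted p = 0.00101). Subcutaneous adipocytes read 2128, 2263 and 1947, against 1771, 2121 and 1946 in subcutaneous stromo-vascular cells. Those arrays overlapped, and the log2 difference of 0.12 had a 95% interval of -0.21 to 0.45 (adjusted p = 0.552).

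Sqle, squalene epoxidase, which adds oxygen to squalene and is a slow step of the route, was lower in adipocytes in both depots. It read 1059, 783 and 1115 in subcutaneous adipocytes, against 3688, 3253 and 2792 in subcutaneous stromo-vascular cells. In intraabdominal fat the values were 1565, 1244 and 1410.1 in adipocytes, against 2299.8, 1886 and 2144 in stromo-vascular cells. The adipocyte arrays of both depots lay below every stromo-vascular array. Adipocytes were 3.22-fold lower in subcutaneous fat (log2 -1.69 ± 0.17 SE, adjusted p = 1.21e-06) and 1.49-fold lower in intraabdominal fat (log2 -0.57 ± 0.17 SE, adjusted p = 0.0125). The intraabdominal call was lost without intraabdominal adipocyte array 2 (log2 -0.49, adjusted p = 0.0542), and under median centring and quantile normalization.

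Lss, lanosterol synthase, which folds squalene epoxide into the first sterol, was called only in intraabdominal fat, at 1093, 1029 and 1370.2 in adipocytes against 598, 689 and 866 in stromo-vascular cells (1.59-fold, adjusted p = 0.0207). In subcutaneous fat it read 858, 874 and 1305 in adipocytes, against 808, 666 and 925 in stromo-vascular cells, and the log2 difference had a 95% interval of -0.17 to 0.79. Whether the 2 depots differ here was tested and not called (adjusted p = 0.573). Leaving out intraabdominal adipocyte array 3 or intraabdominal stromo-vascular array 1 or 2 ended the Lss call (log2 0.55 to 0.65, adjusted p = 0.0559 to 0.0822).

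Cyp51, the demethylase that starts the conversion of lanosterol, read 959, 927 and 583 in subcutaneous adipocytes, against 418, 303 and 354 in subcutaneous stromo-vascular cells. Intraabdominal adipocytes read 766, 939 and 892, against 541, 587 and 369 in intraabdominal stromo-vascular cells. Of the 7 genes called higher in intraabdominal adipocytes it alone had the wider gap in subcutaneous fat, 2.13-fold (adjusted p = 0.00218), beside 1.70-fold in intraabdominal fat (adjusted p = 0.0203), but the 2 gaps were not called different (adjusted p = 0.667). The intraabdominal call was lost without adipocyte array 2 or 3 or stromo-vascular array 3 of that depot (log2 0.58 to 0.74, adjusted p = 0.0506 to 0.0967).

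Hsd17b7, which reduces the ketone left at carbon 3 after demethylation, was dim, and called lower in subcutaneous adipocytes. Its mean there, 159, lay below the signal of 173 at which the filter lay, so it was tested only through its higher groups. It read 209, 68.7 and 198 in subcutaneous adipocytes, against 403, 539 and 440.3 in subcutaneous stromo-vascular cells (2.67-fold lower, log2 -1.42 ± 0.32 SE, adjusted p = 0.00169). Intraabdominal adipocytes read 375, 407 and 343, against 606, 681 and 719 in intraabdominal stromo-vascular cells. There the arrays did not overlap, but the difference was not called (log2 -0.77, 95% interval -1.45 to -0.089, adjusted p = 0.0564); it passed in 4 of 16 alternatives.

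Sc5d, the desaturase that places the double bond at carbon 5, was called in intraabdominal fat by both of its probe sets. Probe set 102769_f_at, which stands for the gene in the counts, is of the class that may also bind related sequences. It read 2614, 2052 and 2001 in intraabdominal adipocytes, against 1264, 1241 and 1004 in intraabdominal stromo-vascular cells (1.87-fold, adjusted p = 0.00866). In subcutaneous fat it read 1125, 1969 and 1673 in adipocytes, against 1326, 1488 and 737 in stromo-vascular cells, which overlapped (log2 0.44, 95% interval -0.11 to 0.98); without subcutaneous adipocyte array 1 this difference passed (adjusted p = 0.0482). Probe set 102768_i_at gave 1.76-fold in intraabdominal fat (adjusted p = 0.0184) and a log2 difference of -0.02 in subcutaneous fat. Its intraabdominal call was lost without adipocyte array 1 or stromo-vascular array 2 or 3 of that depot (log2 0.64 to 0.77, adjusted p = 0.0568 to 0.0848).

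**Figure D2:**
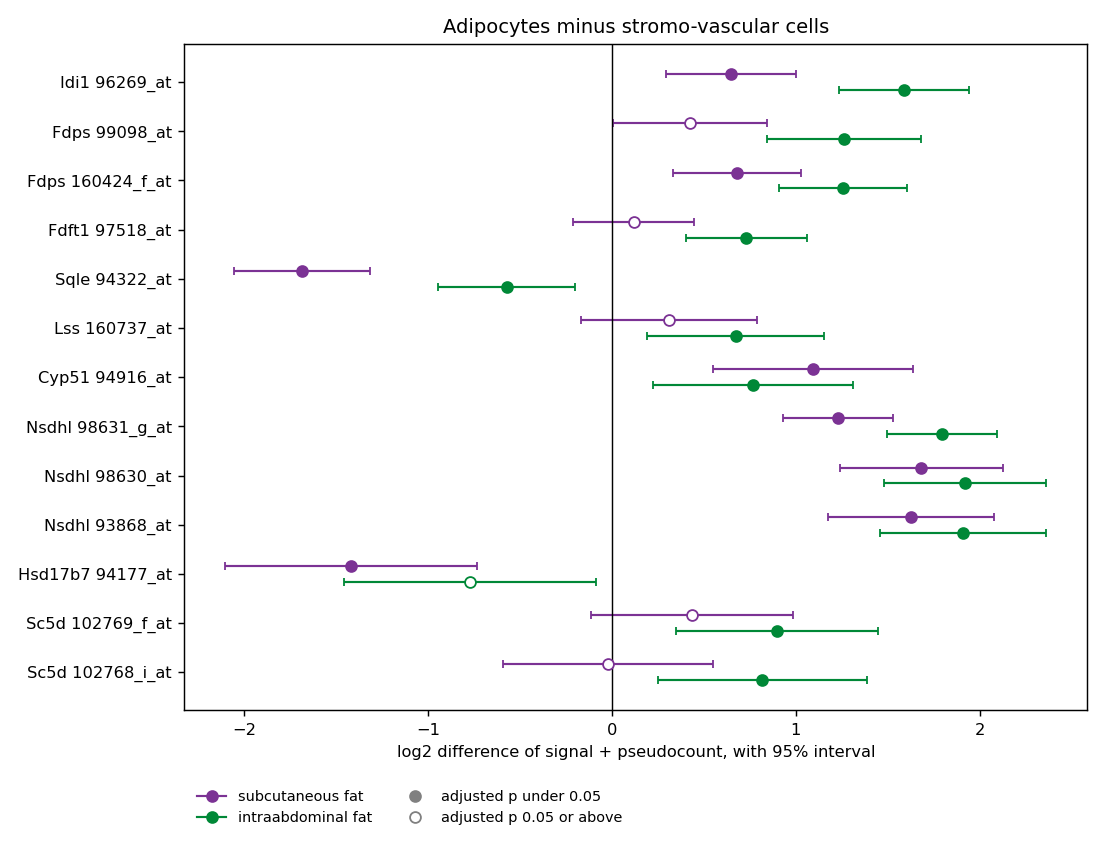
Log2 difference of adipocytes minus stromo-vascular cells for the 13 tested probe sets, with subcutaneous fat in purple and intraabdominal fat in green. Points are fitted differences on the horizontal axis with 95% intervals, and filled points had an adjusted p under 0.05. Sqle and Hsd17b7 lie left of 0 in both depots, and the 3 probe sets of Nsdhl lie farthest right.

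With the actin ratio as a covariate, 5 of 13 member probe sets were called in intraabdominal fat and 1 in subcutaneous fat, and over all probe sets the calls fell to 2173 and 1058, against 4462 and 4594 without it. The ratio tracks the fraction, and standard errors widened with it: for Nsdhl 98631_g_at, called in both depots, the subcutaneous difference became 1.77 ± 0.45 SE. The members' median log2 difference was then 1.2 in intraabdominal fat, against 0.90 without it, and 1.0 in subcutaneous fat, against 0.44. For Sqle the log2 difference became -0.94 ± 0.56 in subcutaneous fat (adjusted p = 0.317) and -0.091 ± 0.39 in intraabdominal fat (adjusted p = 0.898). That of Hsd17b7 in subcutaneous fat became -0.58 ± 1.08 (adjusted p = 0.794), and that of Cyp51 there changed sign to -0.12 ± 0.81.

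**Figure D3:**
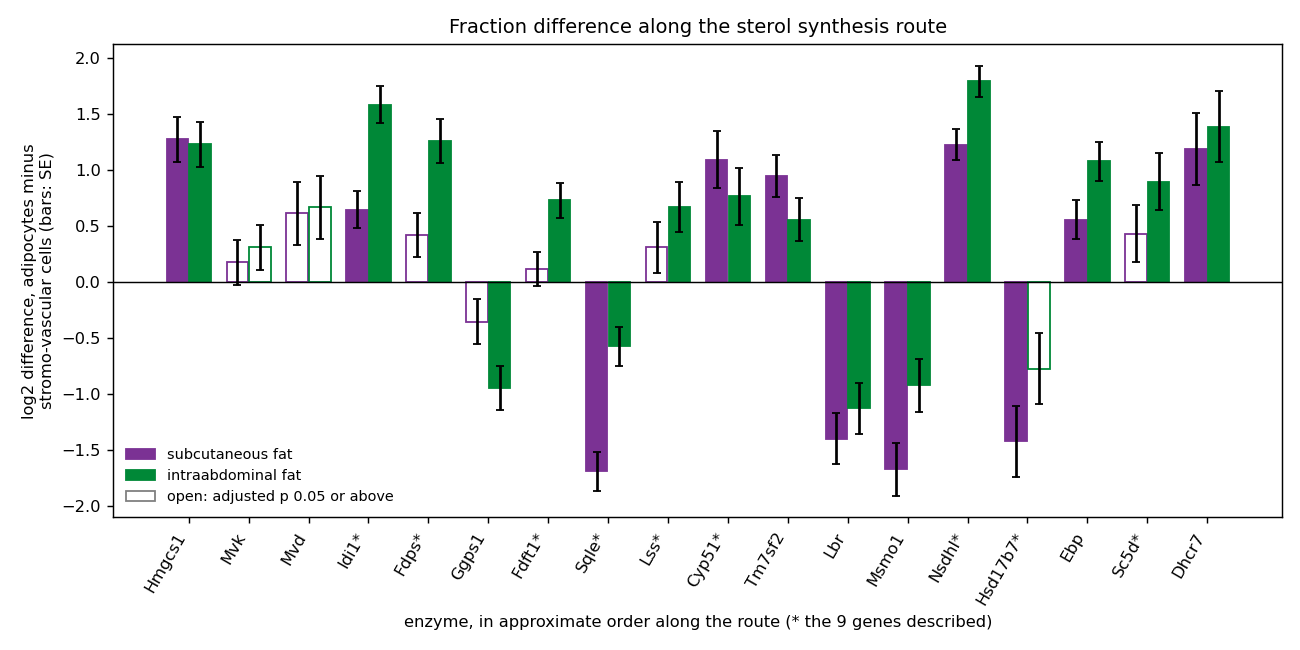
Log2 difference of adipocytes minus stromo-vascular cells for 18 enzymes in approximate order along the route, 1 probe set each, with subcutaneous fat in purple and intraabdominal fat in green. Bars start at 0, error bars are SE, open bars had an adjusted p of 0.05 or above and asterisks mark the 9 genes described. Ggps1, Sqle, Lbr, Msmo1 and Hsd17b7 point down in both depots and the other 13 enzymes point up.

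Other enzymes of sterol and isoprenoid synthesis, from a list of 18 symbols of which 12 were on the array and 11 tested, included both higher and lower members. In subcutaneous fat 6 of 11 were higher and 2 lower in adipocytes (median log2 difference 0.62), and in intraabdominal fat 6 were higher and 3 lower (median 0.56). Hmgcs1, which makes the precursor of mevalonate, read 5278 ± 1040.2 in subcutaneous adipocytes, against 2131 ± 138 in subcutaneous stromo-vascular cells (mean ± SD, n = 3 each; 2.42-fold, adjusted p = 8.3e-05), and was 2.35-fold higher in intraabdominal adipocytes. Ebp, a sterol isomerase, was 2.12-fold higher in intraabdominal adipocytes (adjusted p = 0.000111). Hsd17b12, better known for elongating fatty acids, was 2.13-fold and 3.31-fold higher in subcutaneous and intraabdominal adipocytes.

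Msmo1, the oxidase that acts just before Nsdhl at carbon 4, was lower in adipocytes, at 710.2, 711 and 482 in subcutaneous adipocytes, against 2095, 1941 and 2204 in subcutaneous stromo-vascular cells (3.18-fold lower, adjusted p = 3.02e-05). Lbr, a sterol reductase that also anchors chromatin at the nuclear envelope, was 2.63-fold lower in subcutaneous and 2.18-fold lower in intraabdominal adipocytes (adjusted p = 0.000115 and 0.000755). Ggps1, which leads isoprenoids away from sterols, was 1.92-fold lower in intraabdominal adipocytes (adjusted p = 0.00103).

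Of the 7 listed genes of the SREBP pathway 3 were on the array and 2 were tested. Srebf1 was higher in adipocytes, at 33183, 30258 and 16259.7 in subcutaneous adipocytes, against 4153, 4589 and 4381 in subcutaneous stromo-vascular cells (5.76-fold, adjusted p = 2.19e-07), and 7.76-fold higher in intraabdominal adipocytes. The other tested gene, Mbtps1, a protease that cleaves SREBP, was named after its values were seen and had subcutaneous and intraabdominal log2 differences of -0.046 and -0.13, neither called. Fatty acid synthesis genes, 9 tested of 14 listed, had far wider gaps, with 7 higher and 1 lower in adipocytes of each depot and a median log2 difference of 3.76 in subcutaneous and 2.64 in intraabdominal fat. Fasn, fatty acid synthase, was 57.6-fold higher in subcutaneous adipocytes, and the lower one was Fads1, a fatty acid desaturase, at 2.47-fold; it was chosen for naming after its values were seen.

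Genes of sterol uptake and transport in the cell, 11 tested of 16 listed, had 5 higher and 2 lower in subcutaneous adipocytes and 6 higher and 2 lower in intraabdominal adipocytes than in the stromo-vascular cells of the same depot. Scarb1, a receptor that takes up cholesterol from high-density lipoprotein, was 4.82-fold and 5.59-fold higher in subcutaneous and intraabdominal adipocytes. Lrp1, a lipoprotein receptor, was 2.24-fold lower in subcutaneous adipocytes, and Lipa, the lysosomal lipase that frees cholesterol, 3.78-fold lower in intraabdominal adipocytes. Among 9 tested genes of sterol efflux and the oxysterol receptors LXR, 4 were higher and 2 lower in subcutaneous and 6 higher and 1 lower in intraabdominal adipocytes. Nr1h3, the receptor LXR alpha, was 9.85-fold and 20.3-fold higher, and Ch25h, which makes an oxysterol that restrains SREBP, 14.6-fold and 14.2-fold lower in subcutaneous and intraabdominal adipocytes.

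The next question was whether fat cells of the 2 depots differ. Point estimates of all 13 tested probe sets, which stand for 9 genes, were lower in subcutaneous than in intraabdominal adipocytes. Of these 1 was called, that of Hsd17b7. Over all probe sets 8.13% were called, 4.16% lower and 3.97% higher, and 43.8% had a difference below 0. The members' median log2 difference was -0.27 over probe sets, beside 0.071 for all, and -0.36 on the brightest probe set of each gene. The 11 other sterol and isoprenoid enzymes tested had a median of 0.081 in this comparison, with 0 called. Hsd17b7 read 159 ± 78.1 in subcutaneous and 375 ± 32.0 in intraabdominal adipocytes (SD, n = 3 each), 2.22-fold lower (log2 -1.15 ± 0.32 SE, adjusted p = 0.0402). The subcutaneous mean lay below the signal of 173 at which the filter lay, so the probe set was tested only through its higher groups. With no filter the call was lost (adjusted p = 0.0597). Without the lowest array, subcutaneous adipocyte array 2 at 68.7, the log2 difference was -0.77 and the call was lost, as it was without intraabdominal adipocyte array 1 or 2 (adjusted p = 0.0968 to 0.121 over the 3). Of the fibroblast and preadipocyte markers 2 of 8 were called higher in subcutaneous adipocytes, and the sums given above did not overlap. Among them Col1a1 averaged 20488 in subcutaneous and 4377 in intraabdominal adipocytes, but Dcn, also bright, went the other way, at 18083 and 23089. In the same comparison 1 of 8 macrophage markers was called higher and 1 of 7 endothelial markers lower. Macrophage markers summed to 18723 to 25933 in subcutaneous and 13344 to 21824 in intraabdominal adipocytes, which overlap, as do the endothelial sums. Skeletal muscle markers, 1 of 3 tested called lower, summed to 2243 to 2358 in subcutaneous and 3574 to 4276 in intraabdominal adipocytes, without overlap. The part of these cells in the Hsd17b7 call was not tested.

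Sqle, Fdft1 and the Sc5d probe set 102769_f_at also had all 3 subcutaneous adipocyte arrays below all 3 intraabdominal ones, as had 10.7% of all probe sets, without being called. Their log2 differences were -0.51 (95% interval -0.88 to -0.13, adjusted p = 0.0893), -0.36 (-0.69 to -0.035, adjusted p = 0.158) and -0.50 (-1.05 to 0.049, adjusted p = 0.243). The differences nearest to 0 were those of the Nsdhl probe sets, at -0.085 for 98631_g_at, -0.045 for 98630_at and -0.037 for 93868_at. With each array centred on its median, the median of all probe sets moved to -0.15 and 3 members were called lower, Sqle and Fdft1 having been added (adjusted p = 0.0266 and 0.0379). Calls over all probe sets were then 172 higher of 958, against 345 of 707 as deposited. The actin ratio, higher in subcutaneous adipocytes without overlap, ended the call of Hsd17b7 when used as a covariate (adjusted p = 0.57). The members' median log2 difference was then -0.12. Estimates for Lss (0.062) and the Nsdhl probe sets (0.072 to 0.22) were then above 0, and that of Idi1 was -0.0093. All other member estimates stayed below 0.

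**Figure D4:**
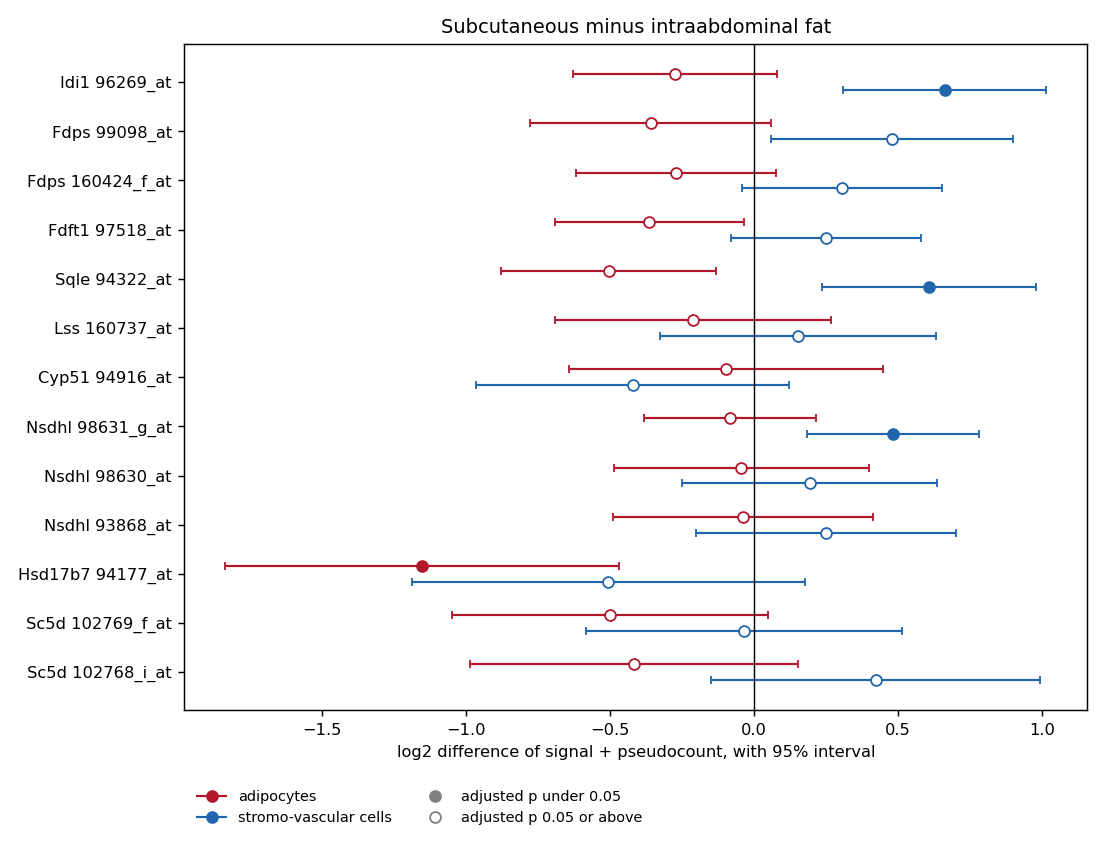
Log2 difference of subcutaneous minus intraabdominal fat for the 13 tested probe sets, with adipocytes in red and stromo-vascular cells in blue. Points are fitted differences on the horizontal axis with 95% intervals, and filled points had an adjusted p under 0.05. All 13 red points lie left of 0 and 10 of 13 blue points lie right of it.

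Between stromo-vascular cells of the 2 depots, 10 of 13 member probe sets had a difference above 0, as had 56.2% of all probe sets. By gene, on the brightest probe set, 6 of 9 did. Of 13 probe sets 3 were called higher in subcutaneous cells, those of Idi1, Sqle and Nsdhl (98631_g_at), where 12.9% of all probe sets were called, 6.49% higher and 6.45% lower. The members' median log2 difference was 0.25, beside 0.061 for all. Idi1 was 1.58-fold higher (log2 0.66 ± 0.16 SE, adjusted p = 0.0149), Sqle 1.52-fold (log2 0.61 ± 0.17 SE, adjusted p = 0.0316) and Nsdhl 1.40-fold (log2 0.48 ± 0.14 SE, adjusted p = 0.0338). Arrays of the depots did not overlap in these 3, nor in Fdps 99098_at (log2 0.48, adjusted p = 0.137) and Fdft1 (log2 0.25, adjusted p = 0.353), and 20.5% of all probe sets were separated that way. In the other direction, that of 16.8% of all probe sets, Hsd17b7 had all 3 subcutaneous arrays below the intraabdominal ones (log2 -0.51, 95% interval -1.19 to 0.18, adjusted p = 0.364), and Cyp51, with overlapping arrays, gave -0.42 (adjusted p = 0.342).

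These 3 calls were small and easily lost. Median centring ended all of them, quantile normalization ended that of Nsdhl (adjusted p = 0.0694), and a fit without the intensity trend ended that of Sqle (adjusted p = 0.0519). Leaving out any 1 of the 6 stromo-vascular arrays ended the Nsdhl call (log2 0.47 to 0.49, adjusted p = 0.0653 to 0.1), and 4 of 6 (intraabdominal 2 or 3, subcutaneous 1 or 2) ended that of Sqle (log2 0.51 to 0.62, adjusted p = 0.0786 to 0.145). The Idi1 call was lost without intraabdominal array 1 or subcutaneous array 3 (log2 0.51 to 0.61, adjusted p = 0.065 to 0.0692). Of the 11 other sterol and isoprenoid enzymes tested, 2 were called between stromo-vascular cells: Hsd17b12 was 1.64-fold higher and Fnta, a subunit of the enzyme that attaches farnesyl groups to proteins, 1.54-fold lower in subcutaneous cells.

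Markers of several cell types differed between the plated cells of the depots. Smooth muscle and pericyte markers, 6 of 6 called lower, summed to 33783 to 36813 in subcutaneous and 128152 to 152790.0 in intraabdominal stromo-vascular cells. Mesothelial markers, 3 of 3 tested lower, summed to 493 to 714 and 4601 to 5523 in subcutaneous and intraabdominal cells. Skeletal muscle markers, 1 higher and 1 lower of 3 tested, summed to 3506 to 4094 in subcutaneous and 2137 to 2572 in intraabdominal cells. Fibroblast and preadipocyte markers, 3 higher of 8, summed to 331359 to 362534 in subcutaneous and 222569 to 249309 in intraabdominal cells. Macrophage markers, 4 lower and 1 higher of 8, summed to 20594 to 21129 in subcutaneous and 27469.8 to 31241 in intraabdominal cells, and endothelial markers, 5 higher of 7, to 3393 to 4048 in subcutaneous and 1409 to 2071 in intraabdominal cells. Of 6 cell cycle markers tested, 0 were called by limma and 1, Mcm5, had an unadjusted p under 0.05, and their signal summed to 8413 to 9301 in subcutaneous and 10084 to 10989 in intraabdominal cells. No marker summed here was listed at 0 on any array, and the part of these cells in the 3 calls was not tested.

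The last comparison asked whether the depot difference depended on the cell fraction. The depot difference of stromo-vascular cells was subtracted from that of adipocytes, and the result was called for Sqle and Idi1, both negative. Over all probe sets 8.43% were called, 4.53% negative and 3.90% positive, which with arrays centred on their medians became 229 positive of 695, against 339 of 733 as deposited. Sqle had a log2 difference of -0.51 in adipocytes and 0.61 in stromo-vascular cells, which gave -1.11 ± 0.25 SE (adjusted p = 0.0104). Idi1 had -0.27 in adipocytes and 0.66 in stromo-vascular cells, which gave -0.94 ± 0.23 SE (adjusted p = 0.0216). In Sqle the subcutaneous arrays were all below the intraabdominal ones among adipocytes and all above them among stromo-vascular cells. Of the 13 member probe sets 12 had a negative value, as had 48% of all probe sets, with a median of -0.58 beside 0.029 for all. On the brightest probe set of each gene the median was -0.61. Fdps 99098_at came closest of the rest (-0.84, adjusted p = 0.0826), and Cyp51 was the positive one (0.33, adjusted p = 0.667). The 11 other sterol and isoprenoid enzymes tested had a median of -0.13, with 0 called. Medians were -0.58 for adipocyte markers, -0.65 for endothelial markers and -0.68 for the efflux and LXR genes, of which 3 of 9 were called negative. Those of macrophage, mesothelial, and smooth muscle and pericyte markers were positive, at 1.62, 2.58 and 2.88. The part of other cells in the 2 calls was not tested.

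The Idi1 interaction was lost without intraabdominal adipocyte array 1 or 2 or subcutaneous stromo-vascular array 3 (log2 -0.92 to -0.88, adjusted p = 0.0517 to 0.0619) and without the intensity trend. Fdps 99098_at was called when intraabdominal adipocyte array 3 or subcutaneous adipocyte array 1 was left out, with an adjusted p of 0.0387 at the lowest. With the actin ratio as a covariate neither gene was called (Sqle -0.85 ± 0.30 SE, adjusted p = 0.143; Idi1 -0.70 ± 0.29 SE, adjusted p = 0.224).

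Ordered by group mean, 7 of the 9 genes had intraabdominal adipocytes highest on their brightest probe set, followed by subcutaneous adipocytes. For Idi1, Fdps, Lss, Cyp51 and Nsdhl the arrays of these 2 groups overlapped. Sqle ran from subcutaneous stromo-vascular cells through intraabdominal stromo-vascular cells and intraabdominal adipocytes to subcutaneous adipocytes, with no overlap between any neighbours. Hsd17b7 ran from intraabdominal stromo-vascular cells down to subcutaneous adipocytes, and its middle neighbours, subcutaneous stromo-vascular cells and intraabdominal adipocytes, overlapped. Spread within a group, as the coefficient of variation averaged over the 4 groups, was lowest for Nsdhl 98631_g_at at 5.38% and highest among tested probe sets for Sc5d 102768_i_at at 24.3%.

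Likeness was taken as the root mean square log2 distance, over the 12 arrays, between a probe set's centred values and the members' median profile. That profile shares the arrays and the group structure with every other gene. The 6 closest genes outside the set were Bop1 (0.114), Tmx2 (0.129), Itm2b (0.137), Mrpl37 (0.145), Nfe2l1 (0.148) and Blmh (0.149), beside a median of 0.719 over 7794 probe sets. Among the members Fdps 160424_f_at lay closest to the profile (0.141), and Sqle (1.01) and Hsd17b7 (1.09) lay farthest. Bop1 read 823, 908 and 954 in subcutaneous adipocytes, 1148, 1182 and 999 in intraabdominal adipocytes, 569, 538 and 667 in subcutaneous and 552, 566 and 521 in intraabdominal stromo-vascular cells, the same order of groups as Idi1.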

How the data were processed

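RNA of 12 samples was hybridised to 1 Affymetrix array each (12488 probe sets), from 15 µg of RNA per the labels. The deposited values are MAS5 intensity on a linear scale, computed by the authors per the submitters' processing notes; no source used here gives the version or detection calls. Their 2% trimmed means agreed within a ratio of 1.00017, so values were taken as deposited. After removal of 66 control probe sets, 10833 of 12422 had 1 symbol, 396 several and 1193 none. The pseudocount of 40.1 was the 10th percentile of all values, and the dimmest 30% of probe sets by mean log2 value were left out. Limma 3.58.1 in R 4.3.3 (group means, eBayes with trend, 8 residual degrees of freedom, Benjamini-Hochberg over 8695 probe sets) tested 5 contrasts and was tested on simulated data. Folds on the plus-pseudocount scale understate changes of dim genes, and 12 arrays limit the precision. For other lists the brightest probe set stood for a gene, and of each list at most 5 called genes per contrast, by smallest p, could be named; every member is named. Members and lists were chosen with earlier results of these data known. Alternatives changed the pseudocount, filter, normalization, weights, trend, groups fitted, replicate block, actin covariate and single arrays.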

Additional observations from a re-analysis of the deposited data

Results flagged for a closer look

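The depot difference of Sqle depended on the fraction by a test of the difference itself, the adipocyte value less the stromo-vascular one being -1.11 on the log2 scale (adjusted p = 0.0104). That of Idi1 was -0.94 (adjusted p = 0.0216). Fdft1 was noted because its 3 subcutaneous arrays lay below the intraabdominal ones in adipocytes and above them in stromo-vascular cells; the difference of the differences, -0.61, was tested and not called (adjusted p = 0.108).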

How the results depend on the processing

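Of 1165 recomputed member differences, 1078 kept their direction and their side of the threshold, 55 lost a call with the same sign, 10 gained one and 22 changed sign, of which 2, both of Cyp51 with the actin covariate, also lost a call; where no value shows the cause, the cause was not tested. With the actin ratio as a covariate, the member probe sets called were 1 of 13 between subcutaneous and 5 between intraabdominal fractions, and 0 between depots of adipocytes and 0 in the interaction; over all probe sets the calls were 1058, 2173, 97 and 403. Several differences then changed sign: Cyp51 to -0.12 and -0.024 between subcutaneous and intraabdominal fractions and -0.10 in the interaction, Fdft1 to -0.54 and Sc5d 102768_i_at to 0.55 between subcutaneous fractions, Lss to 0.062 and Nsdhl to 0.22 (93868_at), 0.072 (98630_at) and 0.13 (98631_g_at) between adipocytes, and Sc5d 102769_f_at to 0.010 between stromo-vascular cells. Array weights gave 0.096 for the last and 1952 calls over all probe sets between stromo-vascular cells, against 1125. Between adipocytes, members called were 3 with median centring and 0 with no filter, with the dimmest 50% left out (which removes Hsd17b7), with the replicate block and with only the compared groups fitted, which gave 299 of all probe sets, against 707. Between stromo-vascular cells median centring left 0 members called, and in the interaction 1 was called without the intensity trend. Median centring moved the median of all probe sets to -0.15 between adipocytes, 0.049 between intraabdominal fractions and -0.13 in the interaction, against 0.071, -0.11 and 0.029.

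Leaving out 1 array gave 8 to 9 members called between subcutaneous and 10 to 11 between intraabdominal fractions, 0 to 1 between adipocytes, 1 between stromo-vascular cells each time and 1 to 3 in the interaction; over all probe sets the ranges were 3957 to 4448, 4001 to 4221, 365 to 949, 765 to 919 and 538 to 820. Differences near 0 changed sign among these: between adipocytes Cyp51 ran from -0.22 to 0.12, Nsdhl 93868_at from -0.15 to 0.099, 98630_at from -0.11 to 0.0078 and 98631_g_at from -0.16 to 0.016. Between stromo-vascular cells 98630_at ran from -0.045 to 0.41 and Sc5d 102769_f_at from -0.23 to 0.26, Sc5d 102768_i_at ran from -0.20 to 0.14 between subcutaneous fractions, and 98630_at from -0.45 to 0.00078 in the interaction. Same-numbered arrays deviated together by correlations of -0.0863 to 0.11, so the numbers were not taken as pairs; with the replicate block the calls over all probe sets were 595 between adipocytes, 1054 between stromo-vascular cells, 4506 and 4406 between subcutaneous and intraabdominal fractions and 645 in the interaction, and Nsdhl 98631_g_at was no longer called between stromo-vascular cells (adjusted p = 0.0596) nor Hsd17b7 between adipocytes (adjusted p = 0.0632). The 12 arrays limit the precision of every value, and Hsd17b7 in subcutaneous adipocytes was dim, at a mean below the signal of 173 at which the filter lay.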
